A study of Mus musculus with 7 samples.

Results

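Gjc3 and Gjb1 are the 2 connexin genes described here, out of 27998 genes counted per cell in the adult mouse cerebral cortex, and they were taken from the count table by symbol. Their RNA was followed in 9291 oligodendrocyte lineage cells (OLCs) across the 11 clusters that the authors named and the 3 libraries that they sorted. The control dOLCs were TdTom+ cells of Emx1-Cre:Sox10-GFP-TdTom mice, that is, cells from dorsal progenitors in which Emx1-Cre had switched the reporter (5804 cells). The control vOLCs were the GFP+ cells of the same genotype, of ventral origin (925 cells). The ectopic vOLCs were the GFP+ cells of mice that carried Emx1-Cre, Sox10-GFP-tdTom and, in addition, Sox10-GFP-DTA, in which diphtheria toxin A was directed at the dorsal lineage and removed most but not all of it (2562 cells).

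All mice were P90 (11 to 14 weeks) on a C57BL/6-B6CBA background, and all carried Emx1-Cre and the Sox10 reporter. The labels give the tissue as motor and cingulate cortex and also speak of neocortices, from 4 control and 2 ablated mice, and each condition gave 1 library of cells from pooled animals. Conditions were therefore compared without replicates. No p-value was computed, and every 95% interval below covers counting error only, with PCR duplicates removed by unique molecular identifiers (UMIs). Reporter and toxin were driven by Sox10, so the sort and the ablation both depended on cells of this lineage, and a cell that escaped Cre would count as ventral. The libraries held 23078181, 4846391 and 14293675 UMIs (control dOLCs, control vOLCs and ectopic vOLCs, the order kept below), with medians of 3489.5, 5022 and 5318.5 UMIs per cell. Kept cells of different libraries shared 6 to 24 barcode sequences per pair of libraries. Both sexes were used according to the labels, yet each library held Xist RNA of the inactive X chromosome (1072 to 1297 UMIs per 1000000, CPM) and at most 0.07 CPM of Y-linked genes, which bears on Gjb1 as an X-linked gene but did not separate the libraries. Summed OPC, committed and MOL2 markers were highest in the clusters named for them. The MOL5/6 markers were highest in MOL5/6a (56777 CPM), but lower in MOL5/6c (34552 CPM) than in MOL1 (41779 CPM) and MFOLb (36378 CPM). MFOLb cells also carried summed astrocyte markers at 2213 CPM, against 74.8 to 649 CPM in the other clusters.

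Connexins are membrane proteins that assemble into hexameric channels. Channels of apposed cells dock into gap junctions, through which ions and small molecules pass, and in myelinating glia they link layers of the same sheath as well as oligodendrocytes with astrocytes. Gjc3 encodes Cx29, which lies in the innermost, axon-facing membrane of the sheath and in the juxtaparanode and is not known to form typical gap junctions there. Gjb1 encodes Cx32, which joins oligodendrocyte membrane layers and pairs with Cx30 (Gjb6) of astrocytes, and whose mutation causes a hereditary neuropathy. Cx43 (Gja1) is the main astrocyte connexin.

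In the mouse genome (GRCm38, GENCODE M21), Gjc3 lies on the minus strand of chromosome 5, from 137953461 to 137963098, with its 807 coding bases split over 2 exons. Gjb1 lies on the plus strand of chromosome X, from 101376378 to 101385629, with all 849 coding bases in 1 exon. RefSeq lists 1 start for Gjc3 and 4 for Gjb1, and 3′ UMI counting cannot tell which Gjb1 start was used. The 250 bases before a start are shown because both genes were active in 1 lineage but in different order along it. For Gjb1 the start closest to the coding exon was taken. Capitals mark the 6-base SOX cores ACAAAG and ACAATG, searched on both strands, since SOX10 is the lineage factor known to act on Gjb1 in myelinating glia (RefSeq, GRCm38.p6, 5′ to 3′ along each gene).
Gjc3, chr5:137963099-137963348, minus strand: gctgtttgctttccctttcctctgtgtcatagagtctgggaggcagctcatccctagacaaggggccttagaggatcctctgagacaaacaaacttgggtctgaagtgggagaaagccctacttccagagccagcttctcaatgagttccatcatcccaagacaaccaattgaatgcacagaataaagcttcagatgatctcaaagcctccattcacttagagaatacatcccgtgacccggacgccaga
Gjb1, chrX:101383482-101383731, plus strand: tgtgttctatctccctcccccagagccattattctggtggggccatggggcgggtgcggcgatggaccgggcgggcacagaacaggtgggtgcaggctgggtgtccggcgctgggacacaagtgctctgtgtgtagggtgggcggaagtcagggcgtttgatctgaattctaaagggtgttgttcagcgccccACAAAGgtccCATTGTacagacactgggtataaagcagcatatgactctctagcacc
The Gjb1 window held an ACAAAG at position -57 and, on the opposite strand, an ACAATG at position -47 relative to the first transcribed base, and a TATAAA at -29. The Gjc3 window held neither SOX core. Of the 32851 promoter windows of this length in the RefSeq table, 25.2% held at least 1 of the SOX cores and 4.12% held 2 or more. A TATAAA was in 12.4% of them. These shares are per window, and Gjb1 has 4 windows against 1 of Gjc3. A MYRF motif (CTGGCAC, in 4.19% of windows) was also searched and was in no window of either gene. The matches are a description of the letters only. The window of the Gjb1 start farthest from the coding exon held 1 core, an ACAAAG at -176, and those of the other starts held none.

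Gjc3 and Gjb1 were abundant in the lineage, with 22251 and 22701 UMIs over all kept cells. Of the 19 connexin genes examined, members included, 7 had no UMI and 8 had 1 to 10. The astrocyte connexins Gja1 (293 UMIs) and Gjb6 (192 UMIs) lay between, and 67.2% of the Gja1 UMIs and 40.6% of the Gjb6 UMIs were in MFOLb, the cluster with the astrocyte markers. In MFOLb, 52 of 106, 5 of 8 and 23 of 43 cells of the 3 libraries had a UMI of either astrocyte connexin. In the control dOLCs, Gjc3 was at 476 CPM in such MFOLb cells and 546 CPM in the others, and Gjb1 at 476 and 518 CPM. In the control vOLCs, with 8 MFOLb cells, Gjc3 was at 296 and 448 CPM and Gjb1 at 414 and 448 CPM. In the ectopic vOLCs, Gjc3 was at 363 CPM in such cells and 441 CPM in the others, and Gjb1 at 583 and 541 CPM. These values rest on few UMIs (134 and 119 of Gjc3 in the control dOLCs, 51 and 49 in the ectopic vOLCs). No difference was drawn from them, and the part of astrocyte RNA in the MFOLb values was not tested.

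Gjc3 and Gjb1 were ordered differently along the lineage. Gjc3 was already high in oligodendrocyte precursor cells (OPCs), reached its highest CPM in the committed cluster (COP/NFOL/MFOLa, committed precursors and newly formed oligodendrocytes) and was lower in mature cells. Gjb1 was low in OPCs, higher in MFOLb and highest in the mature cluster MOL2a. The place of MFOLb in this order rests on the authors' name for it. Its committed and newly formed markers summed to 147 CPM, against 2663 CPM in COP/NFOL/MFOLa and 402 CPM in MOL2a. Since the clusters were made from the expression of all genes, these levels are a description, and the spread is the range over the 3 libraries.

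Gjc3 was at 568, 641 and 470.0 CPM in OPCs. It was at 909, 838 and 1031 CPM in COP/NFOL/MFOLa, by CPM above every other cluster in each library. The committed cluster was small (76, 13 and 22 cells), and 3 cells held 71.2% of its Gjc3 UMIs in the control vOLCs, 41.6% in the ectopic vOLCs and 14.6% in the control dOLCs. The median committed cell held 5, 2 and 5.5 Gjc3 UMIs. With cells thinned to 1000 UMIs, the control vOLCs had fewer Gjc3 UMIs per cell in the committed cluster (mean 0.77) than in MOL5/6c (0.85), and a Gjc3 UMI in 38.5% of committed cells against 50.4% of OPCs, so that the first place did not hold in that library. In the control dOLCs the thinned share was 47.4% in both the committed cluster and MOL5/6c, with means of 0.89 and 0.63. The fold of COP/NFOL/MFOLa over OPC was 1.60, 1.31 and 2.19, with an interval that reached below 1 in the control vOLCs only (log2 0.39, -0.01 to 0.77). Single committed cells held up to 26, 27 and 27 Gjc3 UMIs, against at most 8 in an OPC. In MFOLb, Gjc3 was lower than in the committed cluster (506, 348 and 398 CPM). Among the mature clusters, MOL5/6c (651, 682 and 558 CPM) and MOL5/6b (613, 672 and 590.4 CPM) ranked next after the committed cluster. MOL5/6a (492, 517 and 420.1 CPM), MOL5/6d (504, 528 and 421 CPM), MOL1 (500.2, 517 and 453 CPM), MOL2a (551, 534 and 356 CPM) and MOL2b (495, 498 and 381 CPM) followed. By the median CPM over libraries, only the committed cluster stood clear of its neighbour in the order. All other neighbours overlapped in their ranges over the libraries. Cycling OPCs (17, 3 and 11 cells) had 19, 3 and 5 Gjc3 UMIs and do not allow a rank.

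Gjb1 was at 133, 91.2 and 87.3 CPM in OPCs. It was at 225, 149 and 221 CPM in COP/NFOL/MFOLa and 494, 426 and 565 CPM in MFOLb. These ranges did not overlap, and the MFOLb level was 2.20, 2.85 and 2.56-fold that of the committed cluster. In MOL2a, marked by Klk6 and Hopx, Gjb1 was at 893, 1231 and 1107 CPM. MOL2a stood above MOL2b (777, 861 and 768 CPM, where the control vOLC value rests on 45 UMIs in 6 cells, 628 to 1153 CPM), which stood above MOL5/6a (622, 630.5 and 629 CPM), and MOL5/6a above MOL5/6d (513, 539 and 516 CPM), each with no overlap. MOL5/6d, MOL5/6b (506, 550.2 and 489.6 CPM), MOL1 (443, 655 and 506 CPM) and MFOLb could not be separated in neighbouring pairs. MOL5/6c was the lowest of the mature clusters (425, 413 and 339.8 CPM). MOL2a exceeded the combined MOL5/6 clusters by 1.80, 2.16 and 2.00-fold in Gjb1, whereas Gjc3 differed by log2 -0.09, -0.14 and -0.26.

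**Figure D1:**
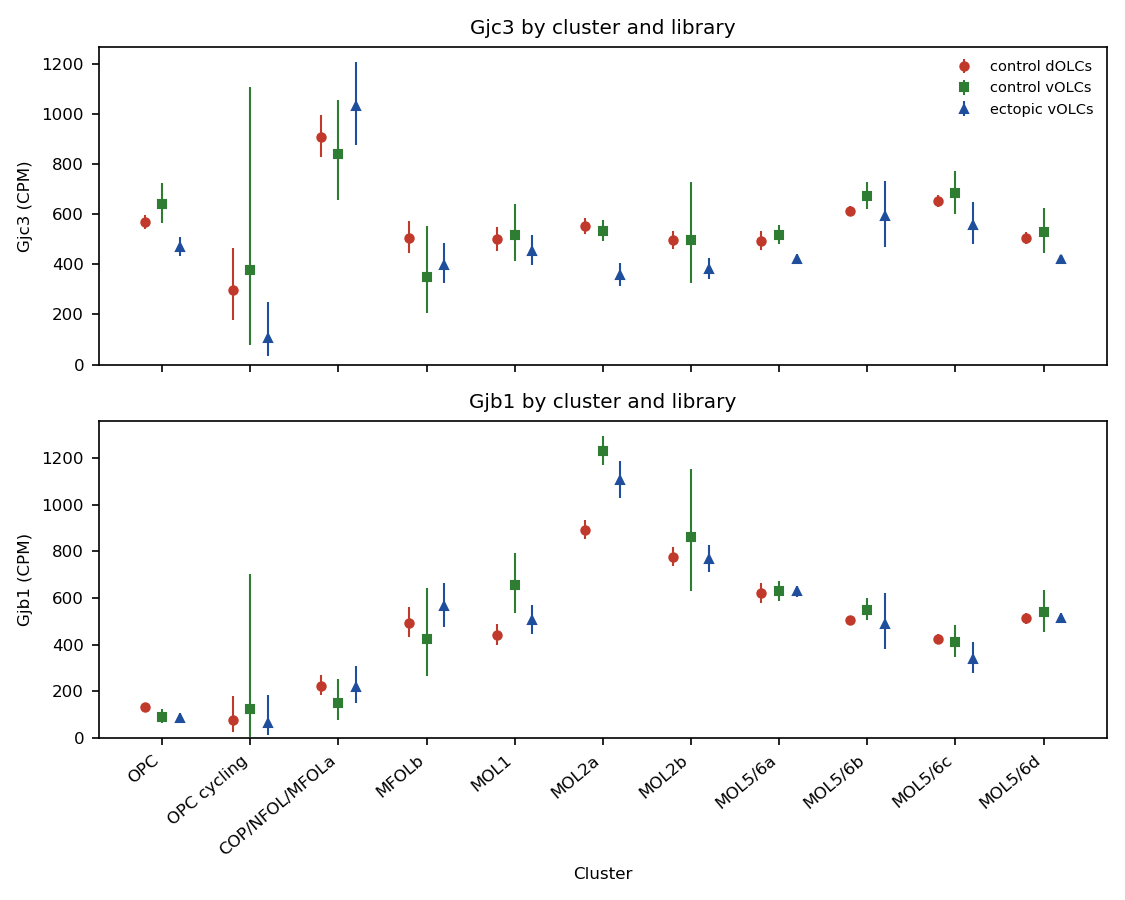
Gjc3 (top) and Gjb1 (bottom) in UMIs per 1000000 UMIs (CPM) for each cluster (x axis) in the control dOLCs (circles), control vOLCs (squares) and ectopic vOLCs (triangles), with exact Poisson 95% intervals for counting error. Gjc3 peaks in COP/NFOL/MFOLa (838 to 1031 CPM) and Gjb1 in MOL2a (893 to 1231 CPM), while OPCs hold 470.0 to 641 CPM of Gjc3 and 87.3 to 133 CPM of Gjb1.

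Mature and precursor cells differed in Gjb1 far more than in Gjc3. Gjb1 was 3.72, 6.24 and 6.34-fold higher in MOL5/6 than in OPCs, a difference of 2-fold or more that 9.87%, 15.1% and 9.96% of all genes tested showed in the same libraries. Gjc3 differed by log2 0.05 (-0.03 to 0.13), -0.12 (-0.31 to 0.08) and -0.14 (-0.27 to -0.01), and a difference of less than 1.25-fold was found in 24.9%, 20.5% and 20.1% of genes. A low level in OPCs can hold free RNA from oligodendrocytes, so both genes were counted per 1000 UMIs of Mal, Mog and Mobp, myelin genes of mature cells. Free RNA from 1 source keeps its genes in 1 ratio. In OPCs there were 307, 746 and 569 Gjc3 UMIs per 1000 UMIs of these genes, against 64.8, 63.2 and 43.9 in MOL5/6, which is 4.73 (4.47 to 5.00), 11.8 (10.3 to 13.5) and 13.0-fold (11.8 to 14.1) more. For Gjb1 there were 71.9, 106 and 106 against 54.7, 61.0 and 57.0, which is 1.31 (1.18 to 1.46), 1.74 (1.21 to 2.42) and 1.86-fold (1.52 to 2.25).

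If every UMI of those myelin genes in OPCs had been free RNA, it would have brought 21.1%, 8.47% and 7.72% of the Gjc3 UMIs counted in OPCs and 76.1%, 57.5% and 53.9% of the Gjb1 UMIs. With Mal alone as the reference, these shares were 16.7%, 5.63% and 4.86% for Gjc3 and 59.9%, 38.2% and 33.9% for Gjb1. They take the MOL5/6 ratios as those of the free RNA, whose own composition was not measured, and the part of free RNA in the OPC values was not tested. The myelin reference itself was at 1854, 859 and 826 CPM in OPCs, highest in the control dOLCs, the library where Gjb1 was also highest in OPCs.

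**Figure D2:**
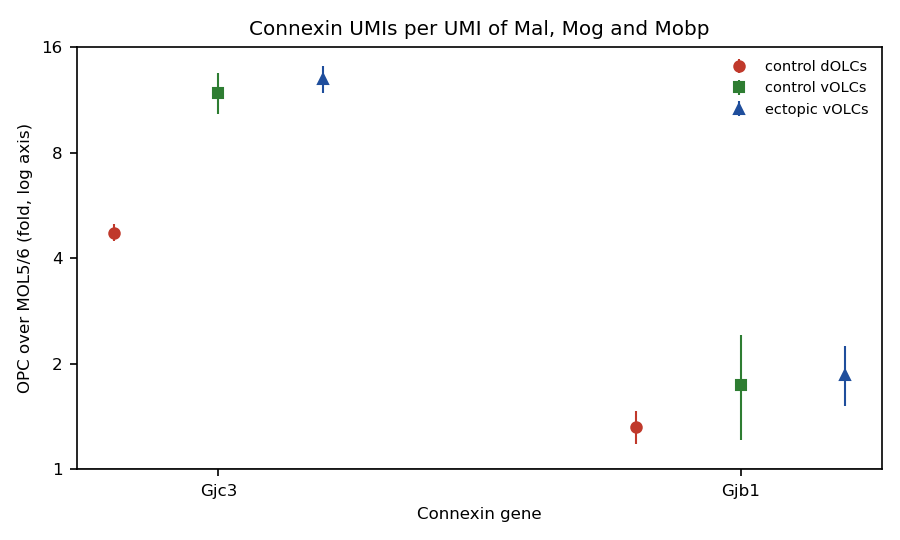
UMIs of Gjc3 and Gjb1 per UMI of the myelin genes Mal, Mog and Mobp in OPCs, divided by the same quantity in MOL5/6 (y axis, fold on a log axis), in each library, with exact 95% intervals for counting error. Gjc3 lies at 4.73 to 13.0-fold and Gjb1 at 1.31 to 1.86-fold, where the foot of the axis at 1 marks the ratio found in MOL5/6.

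The share of cells with a UMI depends on depth as well as on level. In MOL5/6, 85.5%, 93.0% and 87.5% of cells had a Gjc3 UMI and 78.3%, 90.9% and 90.7% a Gjb1 UMI, at median depths of 3491, 5069 and 5478.5 UMIs. In OPCs, at 2795, 3454 and 3421.5 UMIs, Gjc3 was found in 78.2%, 86.8% and 76.4% of cells but Gjb1 in 29.1%, 24.8% and 26.7%. With each cell thinned to 1000 UMIs, which left out no cell, the MOL5/6 shares were 44.0%, 47.2% and 35.0% for Gjc3 and 37.1%, 41.9% and 41.6% for Gjb1. In thinned OPCs, Gjc3 was found in 41.6%, 50.4% and 33.6% of cells and Gjb1 in 11.7%, 9.92% and 7.58%. In MOL5/6, the unthinned share of Gjc3 was higher in the ectopic vOLCs than in the control dOLCs and the thinned share lower, while in OPCs both shares were lower. No cluster of the sort is known to lack Gjc3, so no background share can be given for it. Thinned MOL5/6 cells with UMIs of both genes made up 16.1%, 20.1% and 14.4%, close to the 16.3%, 19.8% and 14.6% that the product of the separate shares gives. Neither gene was concentrated in a few mature cells, since the top 1% of MOL5/6 cells held at most 4.64% of the UMIs of either gene in any library.

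Because Gjc3 and Gjb1 were counted in the same cells, their balance does not depend on how libraries are scaled. Gjc3 made up 81.0%, 87.5% and 84.3% of the UMIs of both genes in OPCs and 80.2%, 84.9% and 82.4% in COP/NFOL/MFOLa. In MFOLb the share was 50.6%, 45.0% and 41.3%. It was lowest in MOL2a, at 38.2%, 30.3% and 24.3%, and highest among mature cells in MOL5/6c, at 60.5%, 62.3% and 62.2%. The MOL5/6 clusters thus differed from each other, with MOL5/6a at 44.2%, 45.1% and 40.1%, MOL5/6b at 54.8%, 55.0% and 54.7% and MOL5/6d at 49.6%, 49.5% and 44.9%. From MOL5/6a to MOL5/6c, Gjc3 was higher by log2 0.41, 0.40 and 0.41 and Gjb1 lower by log2 -0.55, -0.61 and -0.89, with the same sign in each library.

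**Figure D3:**
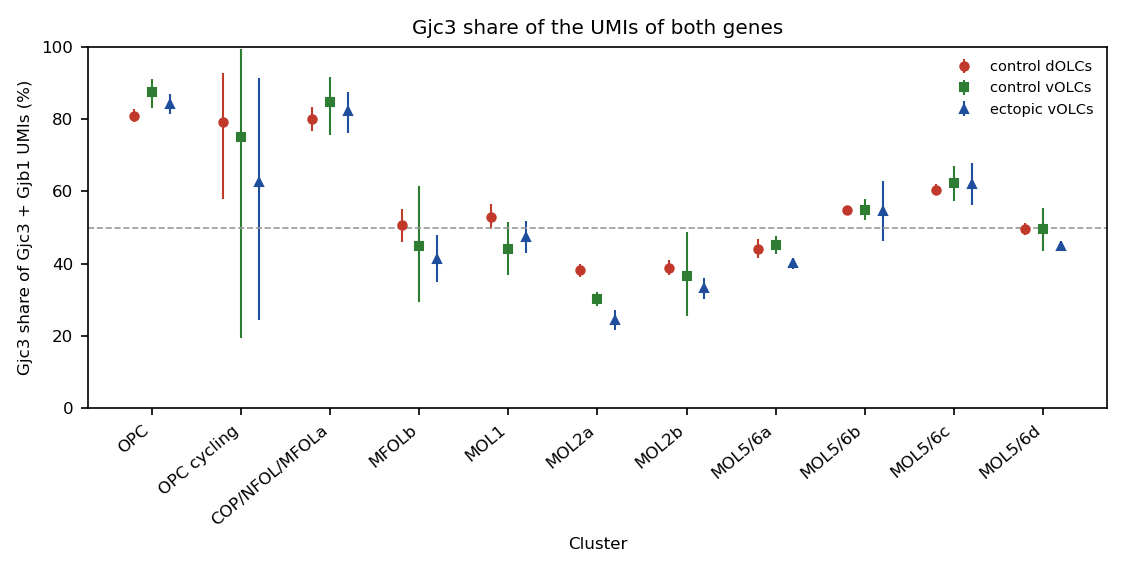
Gjc3 share of the UMIs of Gjc3 and Gjb1 together (y axis, percent) for each cluster in the 3 libraries, with Clopper-Pearson 95% intervals and a dashed line at 50%. OPC and COP/NFOL/MFOLa sit at 80.2 to 87.5%, cycling OPCs (3 to 17 cells) lower at 62.5 to 79.2% with wide intervals, MOL2a at 24.3 to 38.2% and MOL5/6c at 60.5 to 62.3%.

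The comparison of conditions asked whether ventral cells that replaced dorsal cells had the same connexin RNA. It was made in MOL5/6, the largest mature population (3777, 561 and 1842 cells). Gjc3 was at 587 (575 to 599.6), 589 (562 to 618) and 427 CPM (415 to 439.6), from 8713, 1721 and 4514 UMIs. The 2 controls differed by less than counting error and the ectopic vOLCs lay below both. Gjb1 was at 495.5 (484 to 507), 569 (542 to 597) and 554 CPM (539.6 to 568), lowest in the control dOLCs.

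Against the control dOLCs, Gjc3 in ectopic vOLCs was 1.38-fold lower (log2 -0.46, -0.51 to -0.41). This is short of the 1.5-fold taken as a call, which 12.6% of the 5218 genes tested passed in either direction, and 23.3% of genes were lower by at least 1.25-fold as Gjc3 was. Against the control vOLCs it was also 1.38-fold lower (log2 -0.47, -0.55 to -0.38), where 13.9% of 5496 genes passed 1.5-fold and 25.3% were lower by at least 1.25-fold. With TMM factors or size factors Gjc3 was at log2 -0.29 and -0.27 against the control dOLCs and at -0.32 and -0.30 against the control vOLCs, short of 1.25-fold in both. The control vOLCs differed from the control dOLCs by log2 0.01 (-0.07 to 0.08), in a comparison where 3.29% of 5195 genes passed 1.5-fold. The 2 ectopic contrasts share the ectopic library and are not independent of each other. Gjc3 also belongs to a gene list that the study drew from these libraries, so its direction here is not independent evidence.

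Gjb1 differed less. Its sign depended on the cluster weights against the control dOLCs and on the scaling or thinning against the control vOLCs. It was higher by log2 0.16 (0.11 to 0.21) in the ectopic vOLCs than in the control dOLCs, a sign that turned to log2 -0.09 when the MOL5/6 clusters were weighted as in the control dOLCs. Against the control vOLCs it was at log2 -0.04 (-0.12 to 0.04), and at log2 0.11 with TMM factors, 0.12 with size factors and 0.045 with cells thinned to 1000 UMIs. The control vOLCs exceeded the control dOLCs by log2 0.20 (0.12 to 0.28). The MOL2 markers Klk6 and Hopx summed to 25.0, 60.3 and 28.4 CPM in MOL5/6, highest in the control vOLCs as Gjb1 was, and their part in it was not tested. The median of all genes was between log2 -0.03 and -0.02 in these comparisons, and TMM factors and size factors moved it by log2 0.17 and 0.19 for the ectopic vOLCs over the control dOLCs. Relative to the median gene, Gjc3 was at log2 -0.43 and Gjb1 at log2 0.19 in that contrast. Genes with transcripts of similar length had medians of log2 -0.13 for Gjc3 (1412 genes) and log2 0.11 for Gjb1 (753 genes), so length moved with these directions, and its part in them was not tested.

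The make-up of MOL5/6 differed between the libraries in the clusters that differ in Gjc3. MOL5/6a and MOL5/6d, the clusters with less Gjc3, held 23.9%, 48.5% and 94.3% of MOL5/6 cells, and MOL5/6b and MOL5/6c held 105 cells in the ectopic vOLCs. With the cluster weights of the control dOLCs, Gjc3 in ectopic vOLCs was lower by log2 -0.16 against the control dOLCs and by log2 -0.25 against the control vOLCs. This keeps the sign at a smaller size, with CPM as the scale, and weights were not combined with TMM or size factors. Within clusters, the log2 ratio to the control dOLCs was -0.23 (-0.36 to -0.10) in MOL5/6a, -0.05 (-0.39 to 0.26) in MOL5/6b, -0.22 in MOL5/6c, with an interval from -0.45 to just below 0, and -0.26 (-0.35 to -0.17) in MOL5/6d. It was largest among clusters of 50 or more cells in MOL2a, at log2 -0.63 (-0.84 to -0.43). Over all 11 clusters, the ratio was negative in 10, with 8 intervals below 0, and positive in COP/NFOL/MFOLa (log2 0.18, -0.09 to 0.45). Against the control vOLCs it was negative in 9 of 11, with 5 intervals below 0. Between the controls 3 were negative and 8 positive.

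Within the 11 clusters, Gjb1 of the ectopic vOLCs lay below both controls in 5, above both in 1 and between them in 5. Its ratio between ectopic vOLCs and control dOLCs was negative in 6 clusters and positive in 5, with 2 intervals below 0 and 1 above. Against the control vOLCs it was negative in 9 of 11, with 2 intervals below 0 and none above. In MOL5/6a and MOL5/6d, which held most ectopic cells, its ratio to the control dOLCs was log2 0.02 (-0.10 to 0.13) and 0.01 (-0.08 to 0.09). In MOL2a the same ratio was log2 0.31 (0.19 to 0.43), where the control vOLCs exceeded the control dOLCs by 0.46 (0.36 to 0.56) and the ectopic vOLCs lay at -0.15 (-0.28 to -0.02) against the control vOLCs. Over all oligodendrocytes, the control vOLCs exceeded the control dOLCs by log2 0.43 in Gjb1, where 9.05% of genes were higher by at least 1.25-fold, and by 0.16 with the cluster weights of the control dOLCs. The ectopic vOLCs lay below the control vOLCs there by log2 -0.34 (-0.40 to -0.28) in Gjb1, by -0.15 with those weights, and by -0.16 with either TMM factors or size factors. MOL2a cells made up 22.7% of oligodendrocytes in the control vOLCs, 10.3% in the control dOLCs and 5.23% in the ectopic vOLCs.

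The balance of the 2 genes was also compared between conditions. Gjc3 made up 54.2% (53.5 to 55.0), 50.9% (49.2 to 52.6) and 43.5% (42.6 to 44.5) of both genes' UMIs in MOL5/6. The ratio of Gjc3 to Gjb1 in the ectopic vOLCs was below that of the control dOLCs by log2 -0.62 (-0.69 to -0.55) and below that of the control vOLCs by log2 -0.43 (-0.54 to -0.31). With the MOL5/6 clusters weighted as in the control dOLCs, these shifts were only log2 -0.07 and -0.11, where MOL5/6b and MOL5/6c, with 105 ectopic cells, carry most of the weight. Within MOL5/6a the shifts were log2 -0.24 (-0.42 to -0.07) and -0.30 (-0.47 to -0.12), and within MOL5/6d they were -0.27 (-0.39 to -0.15) and -0.26 (-0.62 to 0.09). In MOL5/6b and MOL5/6c the intervals included 0. The balance is free of library scaling but not of shifts linked to transcript length. Over the control dOLCs in MOL5/6, genes of similar length had medians of log2 -0.13 for Gjc3 and 0.11 for Gjb1. Over the control vOLCs these medians were log2 -0.13 and 0.12. The part of length in the shifts of the balance was not tested. Within MOL2a the ratio was lower in the ectopic vOLCs by log2 -0.94 and -0.43 and lower in the control vOLCs than in the control dOLCs by -0.51. Over all oligodendrocytes, Gjc3 made up 50.6%, 43.0% and 41.4%. There the ratio was lower than in the control dOLCs by log2 -0.54 in the ectopic vOLCs and by -0.44 in the control vOLCs, and the ectopic vOLCs differed from the control vOLCs by log2 -0.10 (-0.19 to -0.01).

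In OPCs, ectopic vOLCs had less Gjc3 than both controls, by log2 -0.27 (-0.42 to -0.13) and -0.45 (-0.66 to -0.23). Of the genes tested, 15.8% had a lower ratio than Gjc3 in each of these contrasts. The share of Gjc3 UMIs that the myelin reference would allow as free RNA also differed, at 21.1% in control dOLC OPCs and 7.72% in ectopic OPCs, and its part in the first ratio was not tested. Gjb1 was lower than in the control dOLCs by log2 -0.61 (-0.94 to -0.29), past 1.5-fold, as were 5.79% of 6110 genes in that direction. The call did not hold when cells with the highest doublet scores were left out (log2 -0.31), and the top 1% of OPCs held 14.3% of the Gjb1 UMIs of control dOLC OPCs. All 8 genes of the compact myelin list were also lower by 1.5-fold or more there (median log2 -0.94), and all 8 were lower in the OPCs of control vOLCs than in those of control dOLCs (median log2 -1.07), where 12.1% of 5863 genes were. The lower Gjb1 in these OPCs therefore moved with the myelin RNA given above, and the part of that RNA in it was not tested. Against the control vOLCs, Gjb1 in ectopic OPCs was at log2 -0.06 (-0.62 to 0.53), none of the 8 myelin genes passed 1.5-fold, and 9.77% of 5721 genes were lower by that much.

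**Figure D4:**
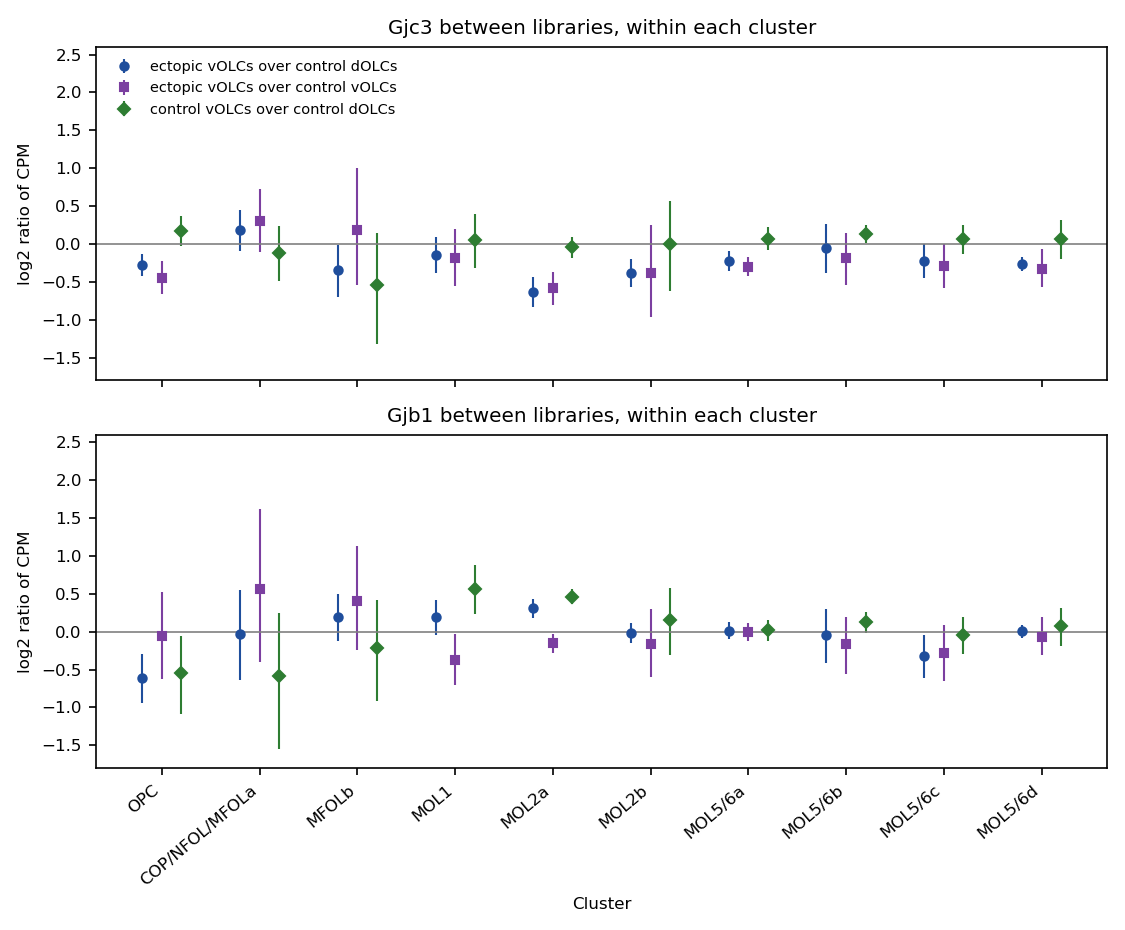
Log2 ratio of CPM between libraries within each cluster for Gjc3 (top) and Gjb1 (bottom), for ectopic vOLCs over control dOLCs (circles), ectopic vOLCs over control vOLCs (squares) and control vOLCs over control dOLCs (diamonds), with exact 95% intervals for counting error; cycling OPCs are left out for their 3 to 17 cells. For Gjc3 the ectopic ratios lie below 0 in most clusters, down to -0.63 in MOL2a, with COP/NFOL/MFOLa above 0, and for Gjb1 they are negative in 6 of 11 clusters against the control dOLCs and in 9 of 11 against the control vOLCs (counts with cycling OPCs).

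Genes that work with connexins in glia were counted from fixed lists. The gap junction scaffold list held Tjp1 (ZO-1, a junction scaffold that binds connexins), Mpdz (a junction protein with many PDZ domains) and Ybx3, a DNA-binding Y-box protein known to bind ZO-1 and not itself a scaffold. Of these, 2 of 3 were tested in MOL5/6 between ectopic vOLCs and control dOLCs. Ybx3 (41.2, 35.6 and 22.5 CPM, log2 -0.87) was lower by 1.5-fold or more, as were 11.5% of all genes, and Tjp1 (45.8, 42.5 and 34.0 CPM) was at log2 -0.43. The list median was log2 -0.65. Against the control vOLCs, Ybx3 (log2 -0.66) and Mpdz (25.9, 26.7 and 16.7 CPM, log2 -0.67) of the 3 genes tested were lower by that much, as were 12.4% of all genes. The list median was log2 -0.66. Mpdz, with 177 UMIs in 1842 ectopic cells, was under the 10% filter there. It was tested only through the control vOLCs, where it was higher, so no result is drawn from its call. With TMM or size factors, which move this contrast by log2 0.15 and 0.16, both genes would fall short of 1.5-fold. No gene of this list passed between the controls.

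Of 10 genes for potassium and chloride transport and its regulation, 6 were tested against the control dOLCs and 1 was lower (11.5% of all genes), the chloride cotransporter gene Slc12a2 (602, 548 and 315 CPM, log2 -0.93). Kcnj10, the glial inward rectifier Kir4.1, was at 452, 571 and 359 CPM, which is log2 -0.33 against the control dOLCs and -0.67 against the control vOLCs. The list medians were log2 -0.20 and -0.13. Of the 10 juxtaparanode genes, which act where Cx29 lies, 7 were tested and 3 were lower than in the control dOLCs, where 11.5% of all genes were, namely Cntn2 (607, 489.7 and 328 CPM, log2 -0.89), Kcna2 (log2 -0.87) and Adam22 (log2 -0.72). The list median was log2 -0.32 and Lgi3, Kcna1 and Epb41l3 were within 0.08 of 0 on the log2 scale. No tested gene of these lists was higher by 1.5-fold in any of the 3 comparisons. Compared with the control vOLCs, 2 of 7 juxtaparanode genes (Kcna2, log2 -0.59, and Adam22, log2 -0.74) and 2 of 6 transport genes tested (Kcnj10 and Slc12a2, log2 -0.80) were lower by 1.5-fold, as were 12.4% of all genes. With TMM or size factors, which move this contrast by log2 0.15 and 0.16, Kcnj10 and Kcna2 would fall short of 1.5-fold. Adam22 would fall short with size factors only, and Slc12a2 would not. Against the control dOLCs, Adam22 would fall short with either.

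None of 8 compact myelin genes passed 1.5-fold in MOL5/6 in any comparison, and their median was log2 0.22 for the ectopic vOLCs over the control dOLCs and 0.16 over the control vOLCs. Of the lineage transcription factors, 2 of 7 tested were lower in each ectopic comparison, where 11.5% and 12.4% of all genes were. They were Myrf (300.1, 306 and 189 CPM, log2 -0.67 and -0.70), needed for myelination, and Tcf7l2 (log2 -0.92 and -0.63). Tcf7l2, with 171 UMIs in 1842 ectopic cells, was under the 10% filter there. It was tested only through the controls, where it was higher, so no result is drawn from its calls. With TMM or size factors, Myrf would fall short of 1.5-fold in both comparisons, and Tcf7l2 against the control vOLCs. Sox10 was at 485, 398 and 358 CPM (log2 -0.44 and -0.15). Markers of committed and newly formed cells (6 of 6 genes found) summed to 128, 102 and 63.9 CPM in MOL5/6 and OPC markers to 124, 67.5 and 58.3 CPM. Both sums were lowest in the ectopic vOLCs, as Gjc3 was. They also differed between the controls, where Gjc3 did not (587 and 589 CPM), the OPC markers mostly so. The part of these cells in the Gjc3 values was not tested. Markers of cells outside the lineage were low there. The summed astrocyte list (6 of 6 genes found) was at 196, 156 and 149 CPM, the neuron list at 18.3, 7.88 and 10.4 CPM, the endothelial and mural list at 2.90, 6.16 and 2.08 CPM and the microglia list at 1.21, 0.34 and 0.47 CPM. The pannexins, which form related channels, were not testable in MOL5/6, and Panx1 was at 48.8, 65.9 and 49.1 CPM in OPCs.

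Likeness to each connexin was measured as Pearson's correlation of log2(CPM + 10) over 22 groups of cluster and library with at least 50 cells, among 11772 genes. These groups share libraries and depth, so the values are a description. The 5 genes most like Gjb1 were Gstm7, Apod, Hapln2, Trf (each r = 0.98) and Sept8 (r = 0.97). Trf, the gene of the iron carrier transferrin, had medians over libraries of 717 CPM in OPCs, 5078 in MOL5/6c and 17098 in MOL2a, an order like that of Gjb1. Hapln2, a link protein gene of the node of Ranvier matrix, had medians of 53.2, 352 and 1239 CPM in the same clusters. The 5 genes most like Gjc3 were Rictor (r = 0.90), Fam214a (r = 0.88), R3hdm1 (r = 0.88), Chst3 (r = 0.87) and Inppl1 (r = 0.86). The committed cluster, where Gjc3 was highest, entered through the control dOLCs alone, since the other libraries had fewer than 50 cells of it. Fam214a had a median over libraries of 0 CPM in that cluster and was close to the offset of 10 CPM elsewhere (9.52 CPM in OPCs and 16.6 in MOL5/6c). Rictor, a subunit of mTOR complex 2, had medians of 51.4 CPM in OPCs, 142 in COP/NFOL/MFOLa and 28.7 in MOL2a. Gjc3 and Gjb1 were themselves at r = -0.40. With ranks in place of values, 2 of the 5 genes named for Gjc3 and 1 of the 5 for Gjb1 stayed.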

How the data were processed

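Sorted cells were run as 3 libraries on the 10x platform. The authors deposited UMI counts per gene and cell, and an annotation of the kept cells with cluster names, UMI and gene counts and the percent of mitochondrial counts per cell. The submitters' processing notes name mm10, Cell Ranger 2.1.1 and Seurat 3 and 4.0. Kept cells had 691 to 2999 genes and at most 15.0% mitochondrial counts. UMIs per cell equalled the annotation in 7651 of 9291 cells (largest difference 53). The 5 annotation columns of transformed counts and other labels, and 4 P0 nuclear samples, were not analysed here.

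UMIs were summed per library and cluster and divided by total UMIs (CPM). Intervals were exact at 95% (Poisson for CPM, Clopper-Pearson for shares, conditional for ratios). Only the ratio intervals were checked on simulated counts, drawn from the Poisson model that they assume. That check does not cover spread between cells or animals. Genes tested had at least 50 UMIs in the compared libraries and a UMI in at least 10% of cells of either. Past 1.5-fold counted as a call. TMM factors came from edgeR 4.0.16 (R 4.3.3), other steps from Python 3.11.15. Scrublet called 16 of 9291 cells (0.172%) and was judged not to have worked, so no doublets were removed. Alternatives covered scaling, thinning, cell filters and cluster weights. Named genes were the 2 members, tested genes of the lists, and the 5 most alike. Members, lists and the myelin reference were chosen with earlier results of these data known, and some listed genes, with 1 other choice of that reference, are not reported here. RefSeq matched both symbols. RefSeq extends Gjc3 by 2469 bases at its 3′ end beyond GENCODE M21, and which annotation was used for counting is not given in the sources used here.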

Additional observations from a re-analysis of the deposited data

How the results depend on the processing

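Of 100 alternatives for the values that answer a comparison, 52 stayed within the interval of the value or, for counts of genes, within 1.5 times the count, and 48 did not. Gjc3 stayed lower in the ectopic vOLCs under all 8 alternatives of each MOL5/6 contrast, each applied alone. With TMM factors, size factors and cluster weights its log2 ratio to the control dOLCs was -0.29, -0.27 and -0.16, and to the control vOLCs -0.32, -0.30 and -0.25 (-0.57 with cells thinned). The factors moved the contrast to the control dOLCs by log2 0.17 and 0.19, about as much as the -0.16 left with cluster weights. Factors and weights were not applied together, so the sign under both is not known. Gjb1 over the control dOLCs was 0.33, 0.35 and -0.087 (0.24 thinned) and over the control vOLCs 0.11, 0.12 and -0.15 (0.045 thinned), so its sign changed with the cluster weights against the control dOLCs and with the scaling or thinning against the control vOLCs. For the control vOLCs over the control dOLCs, Gjc3 was 0.10 thinned and 0.095 with cluster weights, and Gjb1 0.060 with cluster weights. In all oligodendrocytes over the control dOLCs, Gjc3 was -0.25, -0.25 and -0.22 and Gjb1 0.28, 0.29 and 0.010 (0.17 thinned). Over the control vOLCs, Gjb1 there was -0.16 with TMM or size factors and -0.15 with cluster weights, against -0.34. The log2 shift of the ratio of Gjc3 to Gjb1 in MOL5/6 was -0.071 with cluster weights (-0.71 thinned) against the control dOLCs and -0.11 (-0.62 thinned) against the control vOLCs, and 0.035 with cluster weights between the controls, where the sign changed from -0.19.

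Genes past 1.5-fold in MOL5/6 numbered 659, 762 and 171 for the ectopic vOLCs over the control dOLCs, over the control vOLCs, and between the controls. They numbered 5804, 5960 and 5508 without the filter and 1630, 1974 and 931 at 1.25-fold. Thinning gave Gjc3 in 44.0%, 47.2% and 35.0% of MOL5/6 cells and Gjb1 in 37.1%, 41.9% and 41.6%. With Mal alone as the reference, the ratio per reference UMI of OPCs over MOL5/6 was log2 2.59, 4.15 and 4.36 for Gjc3 (2.24, 3.56 and 3.70 with Mal, Mog and Mobp) and log2 0.74, 1.39 and 1.56 for Gjb1 (0.39, 0.80 and 0.89). This alternative, the 4 for the library ratios in OPCs and the 4 for the ratio of Gjc3 to Gjb1 were chosen after seeing the data. Gjc3 stayed lower in ectopic OPCs, at log2 -0.41 to -0.28 against the control dOLCs and -0.60 to -0.38 against the control vOLCs. None of these alternatives took out the Gjc3 UMIs that the myelin reference would allow as free RNA. Those were 21.1% in control dOLC OPCs and 7.72% in ectopic OPCs. Gjb1 in OPCs stayed lower than in the control dOLCs (-0.87 to -0.31), but changed sign against the control vOLCs with TMM factors (0.0048).

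No paired analysis was possible because the labels give 1 library for every condition, and for the same reason no library was left out. Depth limits what single cells show, since at 1000 UMIs Gjc3 was found in 33.6% to 50.4% of OPCs or MOL5/6 cells, depending on the library. Differences between the libraries in animals, sort or preparation cannot be told apart from condition.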
